A study of Mus musculus with 30 samples.

Results

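Fatty acid synthesis and desaturation was followed in mouse embryonic stem (ES) cells through 10 genes, Acly, Acaca, Fasn, Me1, Elovl6, Scd1, Scd2, Fads1, Fads2 and Srebf1, picked by name from the 55401 genes of 4 deposited count tables. The list was drawn up because Scd2 had lower counts after the auxin IAA in CGR8 cells, which carry no degradable protein, so everything measured in that comparison is given as a description. All 10 genes had enough counts to be tested in all 4 tables, in exon and in intron columns.

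Nuclear RNA was sequenced in 30 libraries of 15 conditions, each with 2 replicates from cells cultured and treated independently. CGR8 is a mouse ES cell line, and was left untreated or given 500 µM IAA for 4 h. SYAT was made from 1 homozygous clone of CGR8 in which both copies of Srcap encode SRCAP-YPet-AID. That clone received the receptor OsTir1 under an EF1a promoter and was sorted for YPet-negative cells after 2 h of IAA. In SYAT cells IAA leads to degradation of SRCAP, the remodeler that places the histone variant H2A.Z in nucleosomes. SYAT controls received auxinole, an inhibitor of the receptor (200 nM by the labels and 200 µM by the study's methods), which CGR8 controls did not, and treated SYAT cells were kept in 500 µM IAA for 2 to 8 h, with libraries at 2 h, 4 h, 6 h and 8 h. SYAT cells were also sorted by flow cytometry into early G1 (EG1) and late G1 (LG1) after 1 h of IAA or as controls. Cells expressing wtSRCAP-mCherry or cdSRCAP-mCherry, the latter with mutations in the ATPase, are 1 clone each made in SYAT, received doxycycline at 1 µg/mL for 24 h and were sorted for similar mCherry. They were compared after 4 h of 500 µM IAA and as controls, which received auxinole, as did the controls of the sorted cells. Cells were routinely grown in serum and LIF with CHIR99021 and PD184352, and were changed to serum and LIF alone before experiments.

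Fatty acid synthesis starts from citrate. ATP citrate lyase (Acly) makes cytosolic acetyl-CoA, acetyl-CoA carboxylase (Acaca) makes malonyl-CoA, and fatty acid synthase (Fasn) joins these into palmitate with NADPH, which malic enzyme (Me1) helps to supply. Elovl6 lengthens palmitate, the stearoyl-CoA desaturases Scd1 and Scd2 put the first double bond into saturated chains, and Fads1 and Fads2 desaturate polyunsaturated chains. Srebf1 encodes SREBP1, a transcription factor that activates most of these genes when it is cut from its membrane anchor. In the mouse, Scd1 is best known from liver and fat, and Scd2 from brain and the embryo.

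Scd1 and Scd2 lie in a cluster of paralogs on chromosome 19 (GRCm38), Scd2 at chr19:44293674-44306864 on the plus strand and Scd1 at chr19:44394455-44407879 on the minus strand. Their coding sequences are 90.3% identical, so it matters how much of a read could come from either. The longest stretch that both share without a difference has 147 bases and crosses the junction of the fourth and the fifth exon. It is shown in capitals, with 15 flanking bases on each side in lower case, as spliced coding sequence from the GENCODE vM21 transcripts.
Scd1: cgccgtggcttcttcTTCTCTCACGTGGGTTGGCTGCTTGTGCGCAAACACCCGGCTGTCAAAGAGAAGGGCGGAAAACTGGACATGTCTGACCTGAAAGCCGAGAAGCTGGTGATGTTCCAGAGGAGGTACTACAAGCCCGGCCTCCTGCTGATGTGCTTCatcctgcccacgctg
Scd2: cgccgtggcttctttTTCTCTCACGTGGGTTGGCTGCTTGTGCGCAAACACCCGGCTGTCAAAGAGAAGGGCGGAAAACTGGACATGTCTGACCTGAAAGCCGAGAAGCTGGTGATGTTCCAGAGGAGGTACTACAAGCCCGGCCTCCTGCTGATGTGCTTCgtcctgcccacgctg
The Scd1 stretch is spread over chr19:44400326-44401820 and the Scd2 stretch over chr19:44299687-44301260. Among all 75-base words of the transcripts, the length of 1 read, 1.62% of those of Scd1 and 1.45% of those of Scd2 also occur in the other gene. Reads from such words are uncertain between the genes, and most words of each are found in that gene and not in the other. Reads of the paralogs Scd3 and Scd4 were few, with at most 4.06 and 0.135 CPM (counts scaled to a common library total, here by edgeR's TMM method) in any library.

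The other members lie apart from that cluster. Fads1 (chr19:10182888-10196877) and Fads2 (chr19:10062765-10101746) are neighbours on chromosome 19. Chromosome 11 holds Fasn (chr11:120805846-120824547), Acaca (chr11:84129672-84401651), Acly (chr11:100476353-100528000) and Srebf1 (chr11:60199089-60222581). Elovl6 is at chr3:129532355-129638495 and Me1 at chr9:86581371-86695953. Srebf1 overlaps Rai1, Acaca overlaps Gm11437, Elovl6 overlaps Gm35986 and Me1 overlaps A330041J22Rik, each on the opposite strand, and how the counting treated strand is not given in the sources used here, so reads of these overlaps are uncertain between the genes.

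Exon columns summed to between 12236493 and 60214521 counts per library, with the highest totals in CGR8 cells, where the lowest was 45617992. All 9 markers of mouse ES cells were present in each of the 4 tables, summing to between 1730 and 4610 CPM. Summed markers ranged from 5.12 to 46.8 CPM for 5 fibroblast genes, 0.743 to 11.3 for 4 endoderm genes, 22.8 to 100.0 for 4 trophoblast genes and 39.2 to 183 for 4 neural genes. Srcap mRNA, whose protein IAA is meant to remove, was at 39.9 and 45.8 CPM in SYAT controls and at 44.9 and 58.8 CPM after 8 h, which overlap, with a log2 fold change of 0.27 ± 0.17 (SE) and an adjusted p of 0.534 by edgeR. An mRNA level does not check a protein degron. Each table was normalized by itself, so tests were made within tables and levels between them are set side by side only. Whether fewer cells of a type or less RNA per cell lies behind a value cannot be told apart in these bulk libraries.

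Intron columns did not hold the same thing in every table. Of genes with a single exon and at least 20 exon counts in every library, which have no intron, 0.0537% had counts in the intron columns of CGR8 cells, 0.0935% in those of wtSRCAP and cdSRCAP cells and 0.0959% in LG1, but 53.1% in SYAT cells of the time course and 44.7% in EG1. The intron-to-exon count ratio of Fasn was 0.00551 to 0.00891 in CGR8 cells, 0.00436 to 0.00937 in wtSRCAP and cdSRCAP cells and 0.00623 to 0.00803 in LG1, against 1.0 to 1.01 in the time-course libraries and 1.01 in EG1. Intron columns of the time course and of EG1 therefore hold reads over exons too, and only the other 3 sets are used as a measure of introns. The test of LG1 against EG1 in intron columns compares columns with different content. It called 6 of the 10 genes, where 59.0% of all genes tested were called, and is not read further.

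Fasn, Scd2 and Acly were the most abundant of the 10 genes per length. In CGR8 controls Fasn stood at 185 ± 7.0 CPM per kb of exon (SD, n = 2), Scd2 at 177 ± 24.8 and Acly at 164 ± 5.23, so the neighbours Fasn and Scd2, and Scd2 and Acly, did not differ beyond their spread. Srebf1 followed at 37.4 ± 2.26, Fads2 at 30.4 ± 2.72, Scd1 at 27.8 ± 3.22, Elovl6 at 19.9 ± 3.30, Fads1 at 15.3 ± 2.93, Acaca at 10.4 ± 0.290 and Me1 at 4.17 ± 0.612. Of these neighbours, Fads2 and Scd1 overlapped in their spread, as did Elovl6 and Fads1. Me1 was last and Acaca next to last in each of the 6 control conditions. In SYAT controls the order began with Fasn at 182 ± 36.1, Scd2 at 125 ± 40.0 and Acly at 119 ± 9.55 CPM per kb. In the other 4 control conditions Scd2 came first, with means between 158 and 174 CPM per kb, ahead of Fasn and Acly. Scd2 was 6.37 times as abundant per length as Scd1 in CGR8 controls, 5.46 times in SYAT controls and 6.48 and 6.22 times in wtSRCAP and cdSRCAP controls.

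**Figure D1:**
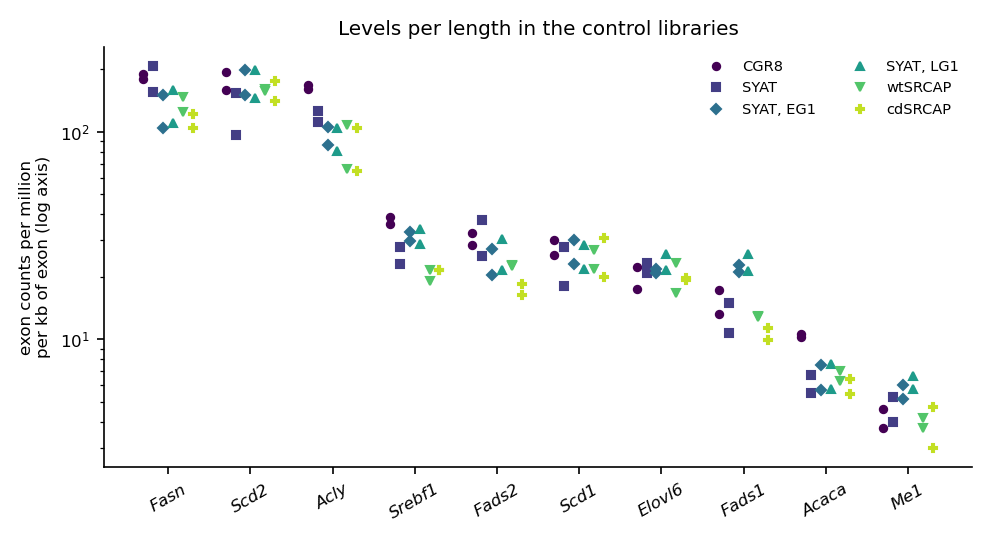
Exon CPM per kb of exon (log axis) for the 10 genes in control libraries, each point 1 library and each marker 1 of 6 control conditions, ordered by the mean in CGR8 controls. Fasn, Scd2 and Acly sit above the other 7 genes in every control condition, and Me1 is lowest.

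Scd2, the more abundant desaturase, had lower exon counts after 4 h of IAA in CGR8 cells. It was at 871 and 1062 CPM in the controls and at 624 and 665 CPM after IAA, groups that do not overlap, and the log2 fold change was -0.59 ± 0.14 (SE). This is the contrast by which the genes were picked and it carries no test. Scd1 moved by a like amount there, from 125 and 147 CPM to 89.2 and 92.8 CPM (log2 fold change -0.58 ± 0.14), and the Scd2 to Scd1 ratio per length stayed at 6.34 beside 6.37 in the controls.

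In SYAT cells Scd2 counts were lower at each later time in both replicates. The controls had 837 and 528 CPM, and libraries at 2 h had 818 and 462, at 4 h 645 and 308, at 6 h 533 and 254 and at 8 h 490 and 233 CPM. Replicate 2 was below replicate 1 in all 5 groups, by 1.59 to 2.10 times, so that the control and IAA groups overlapped at 2, 4 and 6 h and were apart at 8 h. The log2 fold changes against the controls were -0.09 ± 0.48 at 2 h, -0.52 ± 0.48 at 4 h, -0.80 ± 0.49 at 6 h and -0.92 ± 0.49 at 8 h (SE), and none passed the test in the fit with a filter on low counts and no replicate block (edgeR, adjusted p = 1.0, 0.847, 0.4445 and 0.445). Without that filter edgeR called Scd2 at 6 h (-0.80 ± 0.15, adjusted p = 0.000113) and at 8 h (-0.92 ± 0.16, adjusted p = 7.27e-06). Those SEs are far below the 0.49 of the filtered fit on the same libraries, whose replicates lay 1.59 to 2.10 times apart. They do not describe the spread between replicates, so these calls are not read as a result. The share of all genes called without the filter is not given here. With the filter and the replicate number as a block, edgeR also called Scd2 at 6 and 8 h. Of all 19205 genes that fit called 498 lower and 325 higher at 6 h, and 460 lower and 174 higher at 8 h. The replicate numbers did not pair control and 6 h libraries (r = -0.0157). Counts at 8 h were 0.529 of the control level. Without 1 library at a time, the value at 8 h ranged from -1.56 to -0.48.

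After 1 h of IAA, Scd2 was not lower in sorted cells. EG1 cells had 822 and 1085 CPM as controls and 870 and 1123 CPM with IAA, and LG1 cells 793 and 1080 CPM as controls and 818 and 1183 CPM with IAA. The groups overlapped in both phases, and the log2 fold changes were 0.06 ± 0.26 in EG1 and 0.10 ± 0.26 in LG1 (edgeR, adjusted p = 1.0 for each). Here replicate 2 was the higher one in all 4 groups.

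Scd2 was lower after 4 h of IAA both in cells with wtSRCAP and in cells with cdSRCAP. With wtSRCAP, controls had 855 and 877 CPM and IAA libraries 484 and 610 CPM. With cdSRCAP, controls had 767 and 963 CPM and IAA libraries 524 and 616 CPM. In neither did the groups overlap. The log2 fold changes were -0.66 ± 0.23 and -0.60 ± 0.23, with unadjusted p-values of 0.0162 and 0.0251 and adjusted p-values of 0.644 and 0.811 by edgeR. In these exon columns libraries with the same replicate number deviated together, and with the replicate number as a block both passed the test, with -0.67 ± 0.14 (adjusted p = 0.00703) and -0.60 ± 0.14 (adjusted p = 0.0207, edgeR). Scd2 was the 1 of the 10 genes called in each of these blocked comparisons, in which 3.2% and 1.81% of all 19111 genes tested were called. The response of cdSRCAP cells differed from that of wtSRCAP cells by 0.06 ± 0.32 on the log2 scale (edgeR interaction, adjusted p = 1.0). That error leaves room for a difference in either direction. Control levels were alike, with a log2 difference of -0.00 ± 0.23 between cdSRCAP and wtSRCAP cells.

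**Figure D2:**
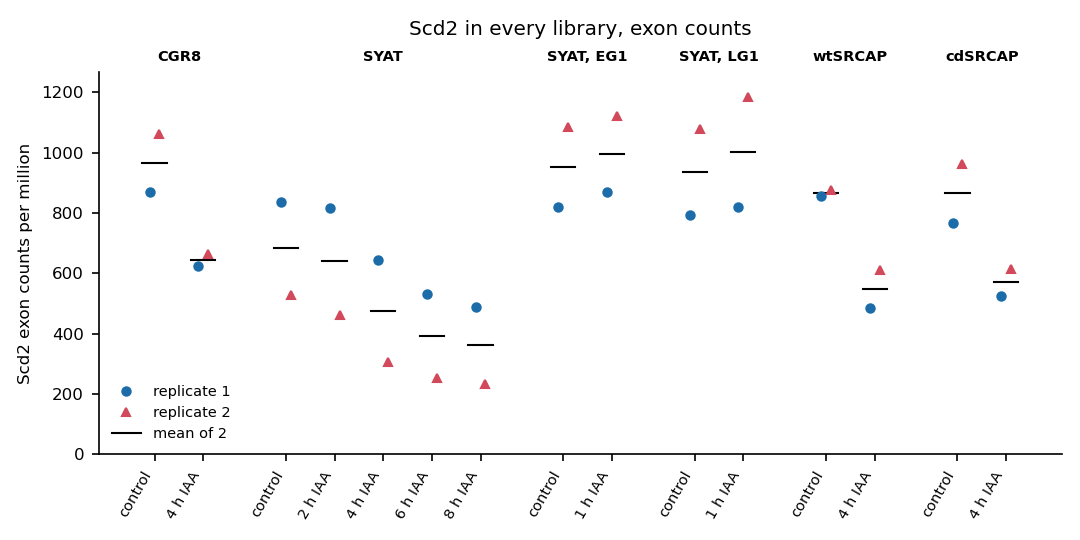
Scd2 exon CPM in each of the 30 libraries by cell and treatment, with circles for replicate 1, triangles for replicate 2 and a line at the mean of 2. IAA libraries lie below their controls without overlap after 4 h in CGR8, wtSRCAP and cdSRCAP cells and after 8 h in SYAT cells, and overlap them after 1 h in EG1 and LG1.

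In exons of cells with degradable SRCAP, the estimates for Scd1 were nearer to the control level than those for Scd2 after 4 h of IAA or longer. In SYAT cells it was at 136 and 87.9 CPM in the controls and at 118 and 68.5 CPM after 8 h, with overlapping groups and a log2 fold change of -0.27 ± 0.37 (edgeR, adjusted p = 0.805). With wtSRCAP it went from 107 and 132 CPM to 88.4 and 112 CPM, and with cdSRCAP from 98.1 and 151 CPM to 106.5 and 121 CPM, which overlap in both. The ratio of Scd2 to Scd1 per length was 5.46 in SYAT controls, 4.84 at 2 h, 3.85 at 4 h, 3.42 at 6 h and 3.48 at 8 h of IAA, and 4.89 and 4.48 after IAA with wtSRCAP and cdSRCAP. The difference between the 2 genes was not tested.

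Among the polyunsaturated fatty acid desaturases, Fads1 was at 71.6 and 51.8 CPM in SYAT controls and at 58.05 and 33.7 CPM after 8 h of IAA, again with replicate 2 the lower in each group. Its log2 fold change at 8 h was -0.43 ± 0.34 and did not pass without a replicate block (edgeR, adjusted p = 0.634). It ranged from -0.88 to -0.09 without 1 library at a time. Fads2 went the other way in SYAT cells, with log2 fold changes of 0.12 ± 0.30 at 8 h and 0.31 ± 0.30 at 6 h that did not pass the test. In CGR8 cells Fads2 was at 107 and 94.0 CPM in the controls and at 78.1 and 73.5 CPM after IAA, without overlap (log2 fold change -0.40 ± 0.14). With wtSRCAP it was at 75.05 and 74.6 CPM in the controls and at 84.3 and 86.3 CPM after IAA, also without overlap but higher (0.19 ± 0.19, edgeR, adjusted p = 0.887). Fads2 was lower in cdSRCAP than in wtSRCAP cells in both treatments, with log2 differences of -0.39 ± 0.19 in the controls and -0.43 ± 0.19 after IAA, neither of which passed (edgeR, adjusted p = 1.0 and 0.951). The 2 cell types are 1 clone each, so clone and protein cannot be told apart.

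Of the genes that make palmitate, Acly stayed nearest to its control level in SYAT cells. It was at 662 and 591 CPM in SYAT controls and at 683 and 568 CPM after 8 h of IAA, with a log2 fold change of -0.00 ± 0.14. Fasn was at 2267 and 1708 CPM in SYAT controls, 2131 and 2316 CPM at 6 h and 2215 and 1635 CPM at 8 h, and its log2 fold changes lay between -0.05 and 0.16 over the 4 times. In CGR8 cells Fasn had 2077 and 1969 CPM in the controls and 1712 and 1368 CPM after IAA (log2 fold change -0.39 ± 0.14), whereas with wtSRCAP it had 1364 and 1613 CPM in the controls and 1641 and 1699 CPM after IAA (0.17 ± 0.21, edgeR, adjusted p = 0.923). Acaca, the carboxylase, was at 114 and 94.0 CPM in SYAT controls and at 89.6 and 73.8 CPM after 8 h, groups that do not overlap, with a log2 fold change of -0.35 ± 0.18 that did not pass the test (edgeR, adjusted p = 0.425). In the fit with the filter on low counts and no replicate block, that was the smallest adjusted p of any of the 10 genes in the 13 exon comparisons tested.

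Elovl6 exon estimates were above 0 after IAA in CGR8, EG1, LG1 and cdSRCAP cells. In SYAT cells their sign at each time depended on single libraries. Without 1 library at a time they ranged there from -0.45 to 0.20 at 6 h and from -0.07 to 0.12 at 8 h, and in EG1 from -0.01 to 0.23. Elovl6 was at 113 and 143 CPM in CGR8 controls and at 145 and 170 CPM after IAA (log2 fold change 0.30 ± 0.16), the 1 gene of the list that was higher without overlap there. With cdSRCAP it was at 125 and 126 CPM in the controls and at 166 and 151 CPM after IAA (0.34 ± 0.22, edgeR, adjusted p = 0.989), while with wtSRCAP the log2 fold change was 0.00 ± 0.22. Me1, a source of NADPH and the scarcest member, was at 20.3 and 15.4 CPM in SYAT controls and at 23.7 and 20.9 CPM after 6 h of IAA, without overlap (0.32 ± 0.29). It was at 11.5 and 18.2 CPM in cdSRCAP controls and at 18.4 and 23.0 CPM after IAA (0.47 ± 0.29, edgeR, adjusted p = 0.984), and in CGR8 cells its log2 fold change was -0.22 ± 0.20.

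By edgeR with the filter on low counts and no replicate block, Srebf1 was the gene other than Scd2 with an unadjusted p under 0.05 in an exon comparison outside CGR8 cells. With cdSRCAP it was at 122 and 121 CPM in the controls and at 93.1 and 79.2 CPM after 4 h of IAA, without overlap, and the log2 fold change was -0.49 ± 0.20 (edgeR, unadjusted p = 0.0332, adjusted p = 0.837). With wtSRCAP it was at 121 and 108 CPM in the controls and at 109 and 97.5 CPM after IAA, which overlap (-0.15 ± 0.20). In SYAT cells it was at 157 and 129 CPM in the controls, 135 and 114 CPM at 2 h, 125 and 91.8 CPM at 4 h, 109 and 144 CPM at 6 h and 120 and 99.6 CPM at 8 h. Groups were apart at 4 and 8 h and overlapped at 2 and 6 h. Without a replicate block none of the 4 differences passed the test, with log2 fold changes between -0.40 and -0.17. In CGR8 cells Srebf1 was at 220 and 202 CPM in the controls and at 152 and 136 CPM after IAA (-0.55 ± 0.13).

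**Figure D3:**
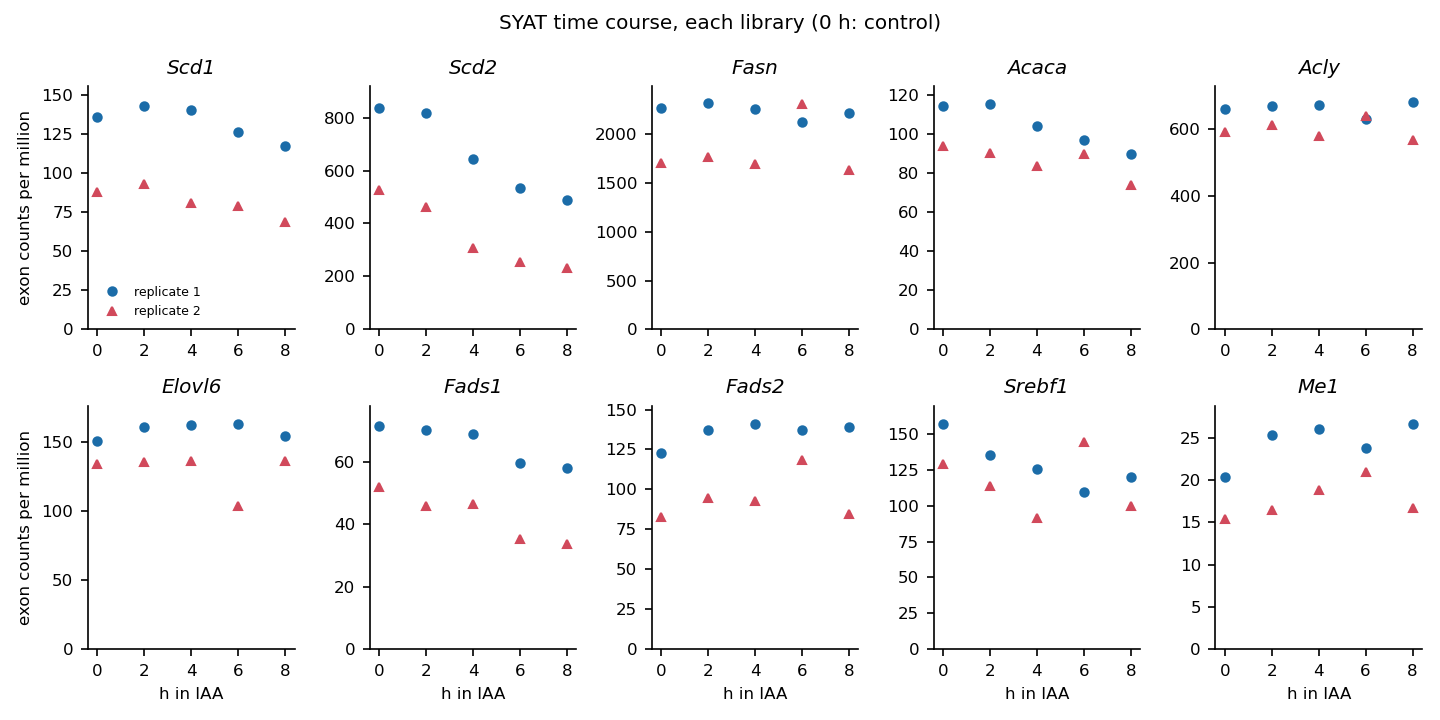
Exon CPM of the 10 genes in the 10 SYAT time-course libraries against hours in IAA (0 h is the control), with circles for replicate 1 and triangles for replicate 2. Scd2 is lower at each later time in both replicates, from 837 and 528 at 0 h to 490 and 233 at 8 h, while Acly stays between 568 and 683.

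A gene was counted as called at an adjusted p under 0.05 with an absolute log2 fold change over 0.5. By that rule 0 of the 10 genes were called in any of the 13 exon comparisons outside CGR8 cells when fitted without a replicate block, by edgeR with the filter on low counts or by DESeq2. Of the 130 tests of members in them 3 had an unadjusted p under 0.05 by edgeR, those of Scd2 with wtSRCAP and cdSRCAP and of Srebf1 with cdSRCAP. By edgeR the share of all genes called was low too, at 0.0677% for 6 h and 0.00521% for 8 h of IAA in SYAT cells. It was 0.0% for 2 and 4 h and for either sorted phase, 0.00523% with wtSRCAP and 0.0% with cdSRCAP. By DESeq2 the shares were larger, at 0.343%, 1.6% and 1.0% for 4, 6 and 8 h, 0.0423% with wtSRCAP and 0.0211% with cdSRCAP. For cdSRCAP against wtSRCAP, edgeR called 0 of all genes in the controls and 1 lower after IAA. DESeq2 called 4 lower and 18 higher there in the controls, and 1 and 2 after IAA. Both called 0 for LG1 against EG1 and for the differences of responses. A second rule, an unadjusted p under 0.05 with an absolute log2 fold change over 0.25, in the edgeR fit without a block took 1 of 10 genes with wtSRCAP, where it took 7.4% of all genes, 2 of 10 with cdSRCAP (5.64%), and 0 of 10 in SYAT cells at 2 h (3.91%), 4 h (9.08%), 6 h (16.1%) and 8 h (13.6%) and in EG1 (1.22%) and LG1 (1.02%). With the replicate block edgeR took 1 lower at 4 h, 2 lower and 1 higher at 6 h and 4 lower at 8 h in SYAT cells. Of all 19205 genes it took 1672 lower and 1021 higher at 4 h, 2225 and 2250 at 6 h, and 2291 and 1559 at 8 h. With cdSRCAP the block took 2 lower and 2 higher, beside 1445 and 1369 of all 19111 genes.

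Libraries of the 2 groups did not overlap for 6 genes that were lower and 1 that was higher in CGR8 cells, where 20.6% and 21.6% of all genes were so placed. The same count at 8 h in SYAT cells was 3 lower, against 24.0% of all genes, and 0 higher. With wtSRCAP 2 genes were lower and 3 higher without overlap (19.5% and 14.9% of all genes), and with cdSRCAP 2 lower and 2 higher (19.0% and 18.7%). The median log2 fold change of the 10 genes was -0.31 in CGR8 cells and, in SYAT cells, 0.04 at 2 h, -0.01 at 4 h, -0.11 at 6 h and -0.16 at 8 h. It was 0.08 in EG1, 0.10 in LG1, -0.04 with wtSRCAP and 0.06 with cdSRCAP. The medians of all genes tested lay between -0.02 and 0.03 in these comparisons. The comparisons at 2 to 8 h share the same 2 control libraries.

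**Figure D4:**
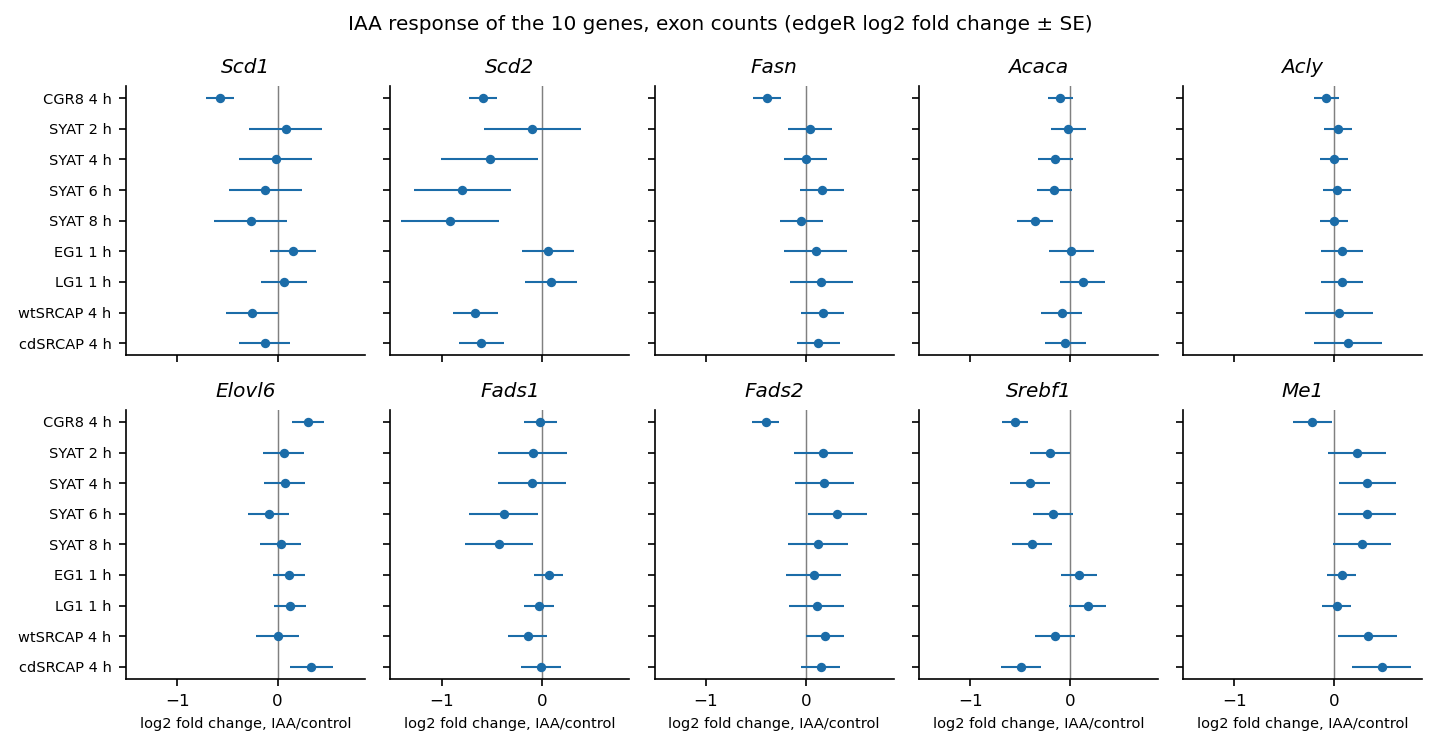
Log2 fold change of exon counts, IAA over control, for the 10 genes in 9 comparisons, as edgeR estimates with bars of 1 SE. Scd2 lies left of 0 at 4 h or later in all cells, with -0.59 in CGR8, -0.52 in SYAT, -0.66 with wtSRCAP and -0.60 with cdSRCAP at 4 h, and near 0 at 1 h.

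Counts over introns, which come from RNA not yet spliced, were taken from CGR8, LG1, wtSRCAP and cdSRCAP cells. Scd2 introns were at 168 and 164 CPM of the intron total in CGR8 controls and at 80.3 and 78.4 CPM after IAA, a log2 fold change of -1.06 ± 0.15. Scd1 introns went there from 27.8 and 25.3 CPM to 10.2 and 13.1 CPM (-1.19 ± 0.33). Fasn introns were at 204 and 88.9 CPM in the controls and at 88.4 and 78.8 CPM after IAA, so that the 2 controls lay further apart than the lower control and the IAA libraries. Of the 10 genes 7 were lower without overlap in CGR8 introns and 0 higher, beside 17.5% and 19.2% of all genes.

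Scd2 introns were at 92.4 and 127 CPM in wtSRCAP controls and at 77.0 and 73.4 CPM after IAA (log2 fold change -0.55 ± 0.20, edgeR, adjusted p = 0.304). With cdSRCAP they were at 91.0 and 107 CPM in the controls and at 52.5 and 57.9 CPM after IAA (-0.84 ± 0.20, adjusted p = 0.142). The groups were apart in both. Without 1 library at a time, Scd1 introns ranged from -0.89 to -0.28 with wtSRCAP, beside -0.76 to -0.30 for Scd2. With cdSRCAP the ranges were -0.46 to 0.04 for Scd1 and -0.91 to -0.71 for Scd2. Srebf1 introns were at 92.2 and 89.6 CPM in cdSRCAP controls and at 48.5 and 50.2 CPM after IAA, without overlap (-0.88 ± 0.19, edgeR, adjusted p = 0.115), and at 70.8 and 81.9 CPM in wtSRCAP controls and 78.1 and 61.5 CPM after IAA, which overlap. The difference between these responses was -0.74 ± 0.27 with an adjusted p of 1.0 by edgeR. Me1 introns were higher with cdSRCAP, at 130 and 121 CPM after IAA beside 84.6 and 91.6 CPM in the controls (0.51 ± 0.16, edgeR, adjusted p = 0.259). After IAA, Fasn introns were at 32.6 and 31.8 CPM with cdSRCAP and at 67.4 and 46.0 CPM with wtSRCAP, without overlap and with a log2 difference of -0.80 ± 0.24 that did not pass (edgeR, adjusted p = 0.318).

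Without a replicate block and with the filter on low counts, no intron change of the 10 genes was called in wtSRCAP or cdSRCAP cells after IAA, where edgeR called 0.299% and 0.236% of all genes, nor in LG1 after 1 h (0.0%). With wtSRCAP, Scd2 and Acaca had an unadjusted p under 0.05, and with cdSRCAP Scd2, Srebf1 and Me1 had one, while DESeq2 called 0 of the 10 in both. With the filter off, edgeR called Scd2 (-0.81 ± 0.23, adjusted p = 0.0314) and Srebf1 (-0.84 ± 0.24, adjusted p = 0.0329) with cdSRCAP, in a fit whose share of all genes called is not given here. By the second rule 2 of 10 genes were taken with wtSRCAP (12.4% of all genes) and 3 of 10 with cdSRCAP (11.3%). In LG1 all 10 intron estimates were above 0 after 1 h of IAA, with a median of 0.18 beside 0.00 over all genes, and Elovl6 was the 1 gene that was higher without overlap, where 13.3% of all genes were. Scd1 had few intron counts in LG1, at 6.27 to 20.6 CPM.

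**Figure D5:**
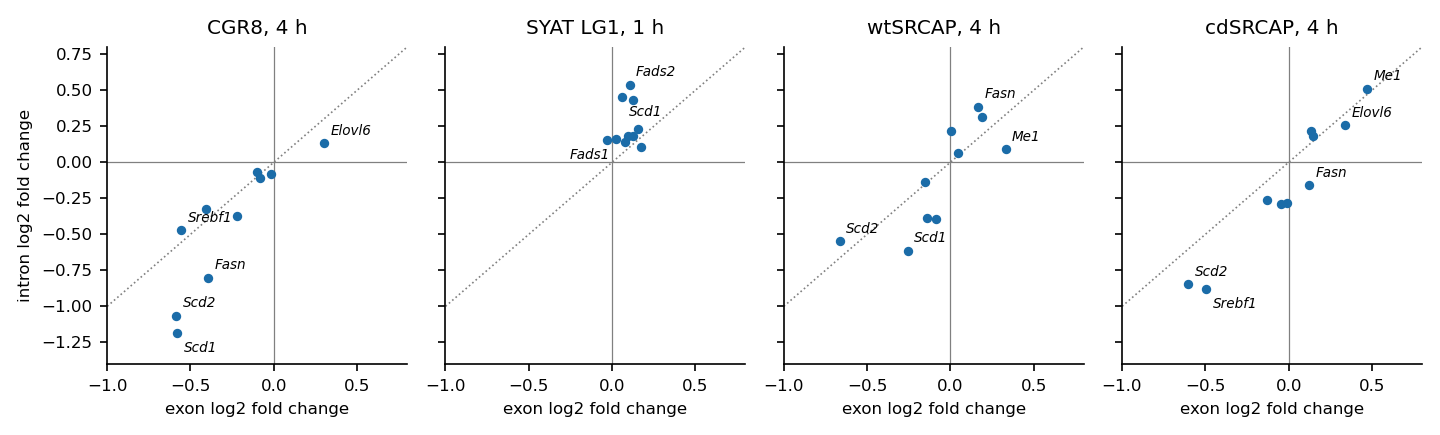
Intron against exon log2 fold change, IAA over control, of the 10 genes in the 4 comparisons whose intron columns hold introns, with a dotted line where both are equal. In CGR8 cells Scd1 and Scd2 lie below the line, at -1.19 and -1.06 in introns beside -0.58 and -0.59 in exons, and in LG1 all 10 genes lie above 0 in introns.

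The other genes of the pathway were taken as 7 lists, 103 genes in all, and in exon columns 0 of the 98 to 100 that were tested were called by edgeR without a replicate block in any comparison outside CGR8 cells. An unadjusted p under 0.05 was found for 3 of them at 2 h, 8 at 4 h, 9 at 6 h and 11 at 8 h in SYAT cells, 9 with wtSRCAP, 13 with cdSRCAP and 0 in EG1 or LG1. DESeq2 called 1 at 4 h (Cpt1a), 4 at 6 h (Cpt1a, Insig2, Oxsm and Pcyt1a) and 5 at 8 h (those and Gpam) in SYAT cells, and 0 with wtSRCAP or cdSRCAP. It called 0.343%, 1.6% and 1.0% of all genes at these times, and 0.0423% and 0.0211% with wtSRCAP and cdSRCAP. Blocked by replicate number, edgeR called 7 with wtSRCAP, among them Cpt1a, Insig2 and Dhcr7, and 6 with cdSRCAP, among them Cpt1a and Pcyt1a, where 3.2% and 1.81% of all genes were called. Between cdSRCAP and wtSRCAP cells it called 1 in the controls (Acsl5) and 2 after IAA (Acsl5 and Cpt1a), where 0.91% and 1.41% of all genes were called. In SYAT cells the edgeR block called 6 at 6 h (Cpt1a, Elovl1, Insig2, Nsdhl, Oxsm and Pcyt1a). At 8 h it called 8 (Acsl1, Cpt1a, Cpt2, Gpam, Insig2, Nsdhl, Oxsm and Pcyt1a). Of all 19205 genes it called 498 lower and 325 higher at 6 h, and 460 and 174 at 8 h. The 14 other genes of fatty acid synthesis had a median log2 fold change of -0.13 at 8 h in SYAT cells, with 10 of 13 tested genes below 0. By the second rule 2 were lower and 0 higher, where 8.44% and 5.13% of all genes were. These were Acsl1, which activates long-chain fatty acids, at 22.8 and 25.5 CPM in the controls and at 14.0 and 16.6 CPM at 8 h (-0.65 ± 0.16, edgeR, adjusted p = 0.121), and the mitochondrial synthase Oxsm, at 5.42 and 4.67 CPM in the controls and at 1.86 and 1.52 CPM at 8 h (-1.57 ± 0.37, adjusted p = 0.109). Of 18 genes of elongation and desaturation 16 were tested, with a median of -0.07 at 8 h. Hacd2, a dehydratase of the elongation cycle, was at 23.0 and 20.8 CPM in the controls and at 34.1 and 29.9 CPM at 8 h (0.55 ± 0.20, edgeR, adjusted p = 0.27), and the elongase Elovl1 at 23.3 and 18.4 CPM and then at 15.3 and 10.1 CPM at 6 h (-0.72 ± 0.26, adjusted p = 0.219). The 4 tested of 5 genes of NADPH supply had a median of 0.07 at 8 h. Among them Pgd, of the pentose phosphate pathway, had a log2 fold change of 0.28 ± 0.17 at 6 h and the dehydrogenase Idh1 one of -0.15 ± 0.19, which did not pass.

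The 13 regulators of the SREBP, LXR and ChREBP pathways had a median of -0.20 at 8 h, and by the second rule 2 were lower and 0 higher. Insig2, which holds SREBPs back in the endoplasmic reticulum, was at 17.0 CPM in both SYAT controls and at 8.96 and 7.77 CPM at 8 h of IAA (-1.02 ± 0.20, edgeR, adjusted p = 0.0767). It was at 18.9 and 19.1 CPM in wtSRCAP controls and at 10.0 and 10.6 CPM after IAA, and at 16.3 and 16.5 CPM in cdSRCAP controls and 9.89 and 9.37 CPM after IAA, with adjusted p-values of 0.622 and 0.735 by edgeR. In CGR8 cells, where SRCAP is not degradable, it was at 14.8 and 17.2 CPM in the controls and at 17.0 and 22.4 CPM after IAA. Mlx, the partner of ChREBP, had a log2 fold change of -0.43 ± 0.15 at 6 h in SYAT cells and of 0.43 ± 0.14 in CGR8 cells.

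The 22 genes of cholesterol synthesis and uptake, also targets of SREBPs, were lower without overlap in 17 cases and higher in 0 in CGR8 cells after IAA, where 20.6% and 21.6% of all genes were, with a median log2 fold change of -0.36. That comparison is the one by which the 10 genes were picked, and it carries no test. Their medians were -0.37 with wtSRCAP and -0.40 with cdSRCAP at 4 h, and -0.18 in SYAT cells at 8 h, with 16, 19 and 17 of 22 genes below 0. By the second rule 3 genes were lower with wtSRCAP (4.48% of all genes), 5 with cdSRCAP (3.99%) and 0 in SYAT cells at 8 h, and 0 were higher. Dhcr7, the last enzyme of cholesterol synthesis, was at 38.7 and 51.4 CPM in wtSRCAP controls and at 14.0 and 32.5 CPM after IAA (-0.94 ± 0.37, edgeR, adjusted p = 0.663). After 1 h of IAA the medians were 0.08 in EG1 and 0.07 in LG1.

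Of 12 genes of glycerolipid synthesis, 2 were lower by the second rule at 8 h in SYAT cells, and the median was 0.02. These were Gpam, the first acyltransferase of the pathway, at 36.9 and 33.9 CPM in the controls and at 22.4 and 21.1 CPM at 8 h (-0.70 ± 0.16, edgeR, adjusted p = 0.1), and Pcyt1a, of phosphatidylcholine synthesis, at 27.4 and 26.4 CPM and then at 16.2 and 16.5 CPM (-0.72 ± 0.16, adjusted p = 0.102). In CGR8 cells Gpam had 38.2 and 38.1 CPM in the controls and 43.5 CPM in both IAA libraries. Of 19 genes of fatty acid oxidation 18 were tested, with 3 lower and 1 higher by the second rule at 8 h and a median of -0.04. Cpt1a, which brings long-chain fatty acids into mitochondria, was the higher one, at 12.6 and 11.2 CPM in the controls and at 25.5 and 21.2 CPM at 8 h (0.98 ± 0.18, edgeR, adjusted p = 0.0716). It was at 10.4 and 13.3 CPM in wtSRCAP controls and 16.5 and 29.0 CPM after IAA, and at 14.5 and 23.5 CPM in cdSRCAP controls and 36.5 and 42.7 CPM after IAA. Hadha, of the oxidation cycle itself, had a log2 fold change of -0.41 ± 0.13 at 8 h (adjusted p = 0.194).

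Across the 10 SYAT time-course exon libraries, the genes whose log2 CPM ran most like that of Scd2 were Nsdhl (Pearson r = 0.986), Rdh11 (0.983), Sdc2 (0.978), Tspan6 (0.975) and Dcbld2 (0.974), of 19001 genes compared. Nsdhl, an enzyme of cholesterol synthesis, was at 27.0 and 16.9 CPM in the controls and at 16.3 and 9.82 CPM at 8 h. Of the other members Fads1 had an r of 0.955 and ranked 39, Acaca 0.914, Scd1 0.911, Elovl6 0.719, Acly 0.656, Fads2 0.547, Srebf1 0.542, Fasn 0.518 and Me1 0.434. All points share the 2 replicate series, between which Scd2 differed by up to 2.10 times, and this difference enters each r together with that of the time in IAA.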

How the data were processed

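Nuclear RNA of 30 libraries was analysed from 4 count tables. According to the study's methods and the submitters' processing notes, the authors aligned paired-end reads of 75 bases to mm10 with STAR, used SAMtools 1.10 and Picard, and counted exons of GENCODE vM25 and introns, taken as the gene body without exons, with featureCounts. They deposited whole-number counts without normalization. Deposited tables of the authors' own comparisons, with DESeq2 fold changes, p-values and normalized values, were not used. Conditions and replicates were taken from the labels.

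Exon and intron counts of each table were fitted separately over all conditions in R 4.3.3 with edgeR 4.0.16 (filterByExpr with a minimum count of 10 and a minimum total of 15, TMM, glmQLFit, glmQLFTest), with Benjamini-Hochberg adjustment over all genes tested, and SE as the absolute log2 fold change divided by the square root of F. Alternatives were DESeq2 1.42.0, RLE scaling, no filter, a replicate block, only the groups compared, intron counts less exon counts, and leaving out each library. Fits without the 6 h libraries were added after the data were seen. The scripts were tested on simulated counts.

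Members, lists and tests were chosen with earlier results of these data known. From each of the 7 other lists, up to 4 genes called in an exon comparison outside CGR8 cells were to be named, or else the 2 with the smallest p at 6 h in SYAT cells, and the 5 genes most like Scd2. Gene symbols and coordinates (GRCm38) are from GENCODE vM21, in which 55141 of 55401 identifiers matched. Libraries of 1 condition differed by more than sampling noise (chi-square per gene 8.59 to 283). Same-numbered libraries deviated from their group means together in the exon columns of wtSRCAP and cdSRCAP cells (r between groups 0.450 to 0.582) and in sorted cells (0.550 to 0.735), by the data and not by the labels. In exons of the SYAT time course r was -0.0157 to 0.683, lowest for control and 6 h, and 0.377 to 0.683 without the 6 h libraries. With 2 libraries a condition, an exact permutation test cannot reach significance, and p-values come from fits that share the spread over genes.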

Additional observations from a re-analysis of the deposited data

Results flagged for a closer look

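Exon counts of 2 genes moved in opposite directions after 4 h of IAA in 2 cell types, with each IAA library outside the range of its controls. Fasn had a log2 fold change of -0.39 in CGR8 cells and of 0.17 with wtSRCAP, and Fads2 one of -0.40 in CGR8 cells and of 0.19 with wtSRCAP. The cells are in separately normalized tables, so the difference was not tested. Among all genes tested 20.6% were lower without overlap in CGR8 cells and 14.9% higher with wtSRCAP, and the share that showed both was not counted.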

How the results depend on the processing

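Outside CGR8 cells, the count of members called by the adjusted rule was the same in 272 of 292 alternative fits and moved in 20. Under a block on replicate number, edgeR called 1 gene, Scd2, in exons of the SYAT time course at 6 h (log2 fold change -0.86, adjusted p = 0.0174) and 8 h (-0.98, adjusted p = 0.0158). There the numbers did not pair control and 6 h (r = -0.0157). The edgeR block also called 1 gene with wtSRCAP and 1 with cdSRCAP, and 2, Scd2 and Srebf1, in the introns of cdSRCAP cells (adjusted p = 0.0301 and 0.032). DESeq2 with the replicate block called 1 gene in exons at 4, 6 and 8 h, 1 with wtSRCAP and 1 with cdSRCAP, 1 in the SYAT intron columns at 6 and 8 h, 1 (Fads2) in LG1 introns after IAA and 2 in cdSRCAP introns. The block gave 8 instead of 6 in LG1 against EG1 intron columns, which differ in content, and changed no other of these counts. With the edgeR block 4.29% of all genes were called in exons at 6 h, 3.3% at 8 h and 2.52% in cdSRCAP introns. With the DESeq2 block the shares were 0.973%, 3.34% and 2.1% in exons at 4, 6 and 8 h, 2.22% with wtSRCAP and 1.37% with cdSRCAP. They were 3.58% and 3.06% in the SYAT intron columns at 6 and 8 h, which hold reads over exons too, 0.941% in LG1 introns and 2.04% in cdSRCAP introns. Of the 98 other pathway genes tested, the edgeR block called 6 at 6 h and 8 at 8 h. With no filter on low counts, edgeR called 1 gene at 6 h and 1 at 8 h in exons and 2 in cdSRCAP introns. For fits without the filter or without the 6 h libraries, the share of all genes called is not given here. Without the 6 h libraries and with the block, Scd2 was called at 4 h (-0.57, adjusted p = 0.00238) and 8 h (-0.97, adjusted p = 8.52e-05) in exons, and 1 gene at 8 h in the intron column. Those 6 h libraries stand apart in the pairing (r without them 0.377 to 0.683 in exons).

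Fits that left out each library in turn are among the alternative fits above. Each leaves a single library in a group and has little power for a call, so their counts of calls are not read. In them the sign of a member's log2 fold change turned in 86 of 130 exon-column and 66 of 130 intron-column estimates. For Scd2, which was not called in these, exon values ranged from -0.57 to 0.28 at 2 h in SYAT cells, -0.13 to 0.28 in EG1, -0.17 to 0.34 in LG1, -0.27 to 0.19 for LG1 against EG1 controls, -0.24 to 0.27 for the difference of their responses, -0.19 to 0.16 for cdSRCAP against wtSRCAP controls, -0.14 to 0.21 after IAA and -0.15 to 0.25 for the difference of these responses. Values of the intron columns ranged from -0.67 to 0.37 at 2 h, -0.10 to 0.39 in EG1, -0.20 to 0.56 in LG1, -0.32 to 0.44 for the LG1 and EG1 responses and -0.36 to 0.10 for cdSRCAP against wtSRCAP controls. Those at 2 h and in EG1 come from columns that hold reads over exons too and do not measure introns. The LG1 and EG1 responses compare columns with different content. Scd2 exons also changed sign with no filter for the LG1 and EG1 responses (-0.0072), and for cdSRCAP against wtSRCAP controls with RLE size factors (0.00085), no filter (0.0035) and only the groups compared (0.013). Over all 19205 genes, edgeR called 7 lower and 6 higher at 6 h in SYAT exons, and DESeq2 351 and 223 of 35880. The cause of these dependences was not tested.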
